A study of Mus musculus with 58 samples.

Results

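Maternally methylated imprinting control regions are stretches of DNA that carry DNA methylation on the chromosome inherited from the mother and lack it on the one from the father. The 10 regions described here are those of Peg3, Snrpn, Kcnq1ot1, Mest, Peg10, Nnat, Gnas, Grb10, Igf2r and Impact, chosen by name and drawn as fixed intervals of the mouse build mm9. They cover 259 kb in all and were read in the H3K27ac tracks of full-grown oocytes, beside 119439 autosomal windows of 20 kb with reads. H3K27ac is acetylation of histone H3 at lysine 27, a mark of active promoters and enhancers, and was read by STAR ChIP-seq, which works from few cells. The control oocytes were labelled Setd2+/- and thus already carry 1 mutant allele. The knockout oocytes were labelled Setd2-/- and came from a maternal knockout of Setd2. The treatment protocol of the series speaks of females of 8 weeks given the hormones PMSG and hCG, but its passage on oocytes of this stage could not be read. Which promoter drove the deletion, the strain and the number of animals could not be taken from the labels. Oocyte markers and the deletion in Setd2 were not checked, since no annotation of mm9 was used.

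Each genotype had 2 replicates, which the authors pooled into 1 track, so no spread between replicates could be measured and no test was made. Every difference below compares these 2 pools. Values are the authors' pooled RPKM, reads scaled to sequence length and library size, in bins of 100 bp. The pools held 30694806 reads in control and 29367645 in knockout. Over the autosomes the control pool averaged 0.374 RPKM and the knockout pool 0.387 RPKM, and over X 0.456 and 0.258 RPKM. As RPKM is relative to library size, absolute levels of acetylation cannot be read from it. Intervals around a ratio are 95% intervals for counting error, widened by the variance over mean of reads among the bins of 1 kb windows, which was 1.96 in control and 3.59 in knockout. They hold no difference between animals or libraries.

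The methylation of these regions is set in the growing oocyte by DNMT3A with its partner DNMT3L, along transcripts that run through the region. SETD2 travels with RNA polymerase II and places H3K36me3 on transcribed chromatin, a mark that DNMT3A binds. After fertilisation the methylation is kept on the maternal copy, with the zinc-finger protein ZFP57, and the promoter inside the region stays silent there. On the paternal copy the same promoter is active. The series sets Setd2 knockout oocytes against controls to relate such marks to each other.

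Promoters of the genes for which these regions are named can be seen in RefSeq's table of promoters (GRCm38.p6), which has entries for 8 of the 10 members and none for Peg10 and Impact. These entries, 17 in all, could not be placed on the mm9 tracks, so they show the kind of sequence and not where the reads fell. The 250 bases before the start site are printed 5′ to 3′ for 4 members and for Airn, the noncoding RNA that starts inside Igf2r. They were chosen as promoters of the paternally active transcripts, and CpG, the dinucleotide that is methylated, is in capitals.
Peg3 chr7:6730420-6730669 minus strand: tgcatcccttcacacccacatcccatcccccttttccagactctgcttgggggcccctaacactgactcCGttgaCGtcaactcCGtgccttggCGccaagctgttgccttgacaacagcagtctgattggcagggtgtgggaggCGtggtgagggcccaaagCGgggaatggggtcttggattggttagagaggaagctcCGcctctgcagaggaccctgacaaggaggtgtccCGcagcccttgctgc
Snrpn chr7:60005200-60005449 minus strand: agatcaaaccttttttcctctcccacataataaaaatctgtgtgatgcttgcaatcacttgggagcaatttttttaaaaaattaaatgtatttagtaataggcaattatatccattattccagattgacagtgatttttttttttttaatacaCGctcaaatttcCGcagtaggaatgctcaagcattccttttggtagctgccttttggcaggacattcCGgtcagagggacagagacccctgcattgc
Kcnq1ot1 chr7:143296548-143296797 minus strand: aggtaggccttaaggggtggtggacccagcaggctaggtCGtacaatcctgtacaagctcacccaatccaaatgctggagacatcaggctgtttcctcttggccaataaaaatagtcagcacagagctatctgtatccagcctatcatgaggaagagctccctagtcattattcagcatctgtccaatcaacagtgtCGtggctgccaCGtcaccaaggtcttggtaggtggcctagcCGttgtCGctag
Airn chr17:12741061-12741310 plus strand: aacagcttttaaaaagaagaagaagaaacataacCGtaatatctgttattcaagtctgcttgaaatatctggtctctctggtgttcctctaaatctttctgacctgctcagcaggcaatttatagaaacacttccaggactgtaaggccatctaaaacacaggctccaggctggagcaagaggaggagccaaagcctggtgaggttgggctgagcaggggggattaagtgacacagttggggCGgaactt
Mest chr6:30737800-30738049 plus strand: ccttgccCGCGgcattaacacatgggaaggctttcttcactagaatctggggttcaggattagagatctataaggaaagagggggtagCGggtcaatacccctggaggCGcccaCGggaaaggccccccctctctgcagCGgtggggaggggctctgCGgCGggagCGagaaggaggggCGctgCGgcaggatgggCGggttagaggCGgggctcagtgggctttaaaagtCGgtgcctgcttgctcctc
Over the entries of 300 bases (250 before and 50 after the start), CpG numbered 13 in Peg3, 7 in this entry of Snrpn, 9 in Kcnq1ot1, 3 in Airn and 17 in Mest. The median was 16 over the 17 entries of members and 7 over all 32851 promoter entries. The entries of members thus ran from CpG-poor to CpG-rich, from 2 in an upstream entry of Snrpn to 45 in Grb10. Not all of them can lie in the regions: those of Snrpn begin between 60005150 and 60450128, while its region is 23 kb long. The median, this range and the motif count below therefore describe promoters of the named genes, not the control regions alone. The hexamer TGCCGC, which ZFP57 binds when methylated, was searched on both strands (GCGGCA on the other). It was found in 5 of the 17 entries, those of Mest (in both overlapping entries), Nnat, Snrpn and Grb10, and in 11.6% of all promoter entries. In RefSeq's gene spans, the start of Kcnq1ot1 lay inside Kcnq1, that of Airn inside Igf2r and that of Nnat inside Blcap. The promoter entries of Peg3 and of its neighbour Usp29, which is read from the opposite strand, shared 263 bases.

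All 10 regions carried more H3K27ac in Setd2 knockout than in control oocytes, by 2.14 to 7.42 times, with a median ratio of 2.78. The ratio was above 1 in 10 of 10 regions against 53.0% of autosomal 20 kb windows, and at least 2 in 10 of 10 against 18.0%. In the control pool the region means ran from 0.110 to 0.370 RPKM, each below the autosomal mean. In the knockout pool they ran from 0.321 to 1.12 RPKM, and 9 of 10 lay above the autosomal mean. Kcnq1ot1 was the exception. The median autosomal 20 kb window also lay below the autosomal mean, at 0.362 RPKM in control and 0.284 RPKM in knockout. Over the list, 9 of 10 knockout values were higher than the highest control value. The share of all windows above that value was not computed.

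**Figure D1:**
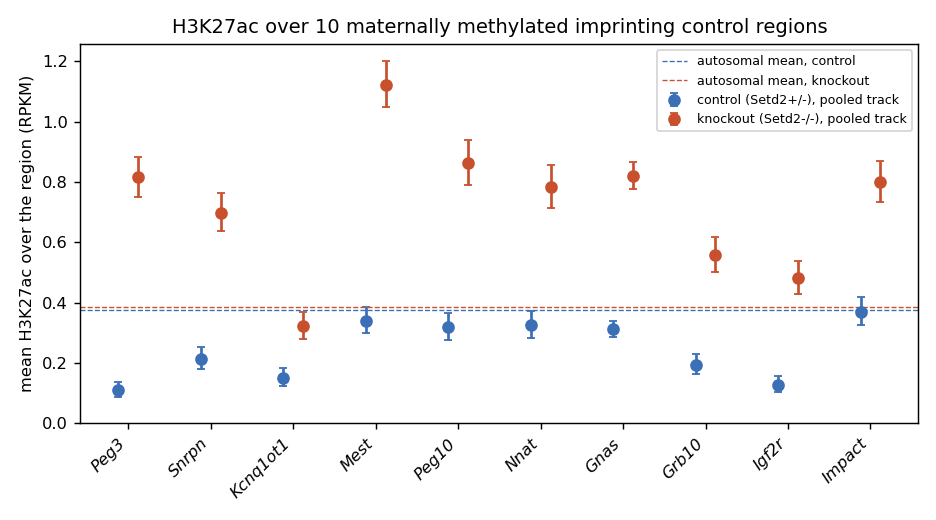
Mean H3K27ac in RPKM over each of the 10 regions in the control (blue) and knockout (red) pools, with bars for exact 95% Poisson intervals of the read number and dashed lines for the autosomal means. Each knockout point lies above its control point, and the control points run from 0.110 to 0.370 RPKM.

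The call at 2-fold used the log2 ratio of RPKM + 0.1, on which low regions show smaller changes than they have. On it 8 of 10 regions were higher and 0 lower, against 6.11% of autosomal 20 kb windows called higher and 9.02% called lower. The median log2 ratio of the regions was 1.18, against 0.05 for the 20 kb windows. Windows with control signal as low as that of the regions, 0.110 to 0.370 RPKM, were called higher in 8.40% of cases. The number of calls rests on the constant added, with 10 regions called when it is 0.01 and 1 when it is 0.5. When each 100 bp bin was counted at most once, all 10 log2 ratios stayed above 0 but 0 were called, with a median of 0.45. Under that limit the median of the autosomal 20 kb windows was -0.15, with 33.8% above 0 and 0.0126% called higher.

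**Figure D2:**
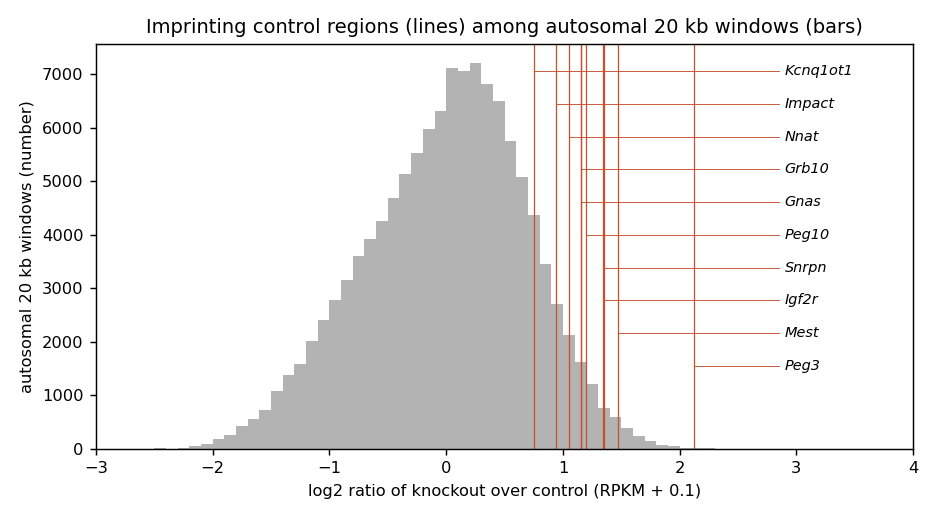
Number of autosomal 20 kb windows (grey bars) by log2 ratio of knockout over control on the scale of RPKM + 0.1, with the 10 regions as red lines. The regions sit on the upper side, from 0.75 for Kcnq1ot1 to 2.12 for Peg3, while the median window is at 0.05.

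Peg3, which encodes a zinc-finger protein made from the paternal copy, had the largest ratio of the 10 (chr7:6670001-6695000). It held 84 control reads and 599 knockout reads, or 0.110 and 0.815 RPKM, a ratio of 7.42 (5.30 to 10.4). Only 0.0435% of autosomal 20 kb windows had a log2 ratio as high. The signal was broad: all 25 windows of 1 kb were higher in knockout, and 5 of them had no control read. The largest step was at 6685001 to 6686000, with 0 control and 36 knockout reads.

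Snrpn, which encodes a spliceosomal protein, lies at chr7:67138001-67161000. It averaged 0.214 RPKM in control against 0.698 in knockout, a ratio of 3.25 (2.46 to 4.31). Knockout signal was higher in 20 of its 23 windows of 1 kb. It was highest 8 kb from the middle, at 1.53 RPKM, and nearly as high at the middle itself, at 1.497 RPKM, where control had 0.163 RPKM. The control track was highest near the edge, at 67159001 to 67160000, with 17 reads against 12 in knockout.

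Mest, an imprinted gene of the hydrolase family that is linked to growth, had the highest knockout mean of the 10 (chr6:30675001-30700000). The control pool had 0.341 RPKM here and the knockout pool 1.12 RPKM, a ratio of 3.30 (2.66 to 4.08). The control track had peaks left of the middle, with up to 1.40 RPKM at 30676001 to 30677000, and little to the right of it. In knockout 24 of 25 windows were higher, and the highest, 5 kb left of the middle, had 2.18 RPKM against 0.522 in control. The single window that was lower was the control peak, with 43 control and 27 knockout reads.

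Peg10, a gene derived from a retrotransposon and needed in the placenta, behaved differently inside its region (chr6:4687001-4708000). It averaged 0.320 RPKM in control against 0.862 in knockout, a ratio of 2.69 (2.10 to 3.46). Its control track had a peak close to the middle, with 42 reads at 4695001 to 4696000 against 16 in knockout, 1.37 against 0.544 RPKM. This was the 1 window of 1 kb, of all those compared in the 10 regions, that was called lower. The next window, 4696001 to 4697000, was the highest in knockout, with 1.67 RPKM against 0.848 in control. The largest step lay 7 kb right of the middle, with 0 control and 49 knockout reads. With 5 kb trimmed from both ends, its log2 ratio went from 1.20 to 0.57 and was no longer called.

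Nnat encodes neuronatin, a small membrane protein of brain and endocrine cells (chr2:157376001-157397000). Control signal averaged 0.326 RPKM and knockout signal 0.784 RPKM, a ratio of 2.40 (1.86 to 3.10). Control signal lay right of the middle, with up to 1.17 RPKM at 157392001 to 157393000, where knockout had 0.850. Knockout signal was highest 1 kb from the middle, at 1.53 RPKM against 0.0980 in control (45 against 3 reads). Thus the highest windows of the pools were 5 kb apart.

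Impact encodes a regulator of translation under stress (chr18:13120001-13143000). It had the highest control mean, 0.370 RPKM, against 0.80 RPKM in knockout, a ratio of 2.16 (1.71 to 2.73). On the 2-fold scale its log2 ratio was 0.94, just under the limit. The control signal sat at the left edge, where the highest window had 31 control and 28 knockout reads. At the middle the pools differed most, with 0 control reads and 39 knockout reads at 13131001 to 13132000.

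Kcnq1ot1 and the Igf2r intron belong together as regions that hold the start of a long noncoding RNA which silences neighbouring genes on the paternal chromosome. At Kcnq1ot1 (chr7:150471001-150493000) the control pool averaged 0.150 RPKM and the knockout pool 0.321 RPKM, a ratio of 2.14 (1.47 to 3.12), the lowest of the 10. Its knockout signal was concentrated, with the highest window 0.5 kb from the middle, at 150481001 to 150482000, where 36 knockout reads faced 0 control reads. Only 3 of its 22 windows of 1 kb reached the mean of the genome over both pools, 0.379 RPKM. In its middle part, with 5 kb trimmed from both ends, the log2 ratio was 1.13, past 2-fold.

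Igf2r encodes the receptor that clears the growth factor IGF2, and its region (chr17:12924001-12946000) lies in intron 2 by the name given to it. It averaged 0.128 RPKM in control against 0.482 in knockout, a ratio of 3.78 (2.63 to 5.43), second to Peg3. Control signal was low throughout, with at most 0.295 RPKM in a window of 1 kb. Knockout signal was at least 0.306 RPKM in each window from the middle to the right edge, on the grid starting at the border. On the grid centred on the middle it was as low as 0.204 RPKM, 5 kb to the right. It had 1.53 RPKM in the 1 kb centred on the middle, where control had 0.163, but a single bin of 100 bp gave 24 of those 45 knockout reads. It had 1.23 RPKM in the window 7.5 kb to the right. The window 2.5 kb left of the middle went the other way, with 9 control and 2 knockout reads.

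Grb10 encodes an adaptor of growth-factor receptors that restrains growth (chr11:11915001-11937000). Its signal averaged 0.195 RPKM in control against 0.557 in knockout, a ratio of 2.86 (2.10 to 3.90). Knockout signal was highest 1.5 kb from the middle, with 50 reads against 3 in control. Control signal was highest near the right edge, at 0.620 RPKM, where knockout had 0.612 RPKM.

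Gnas encodes the alpha subunit of the stimulatory G protein, and its locus has several imprinted promoters. Its region is the longest, 55 kb (chr2:174110001-174165000), where control averaged 0.312 RPKM and knockout 0.820, a ratio of 2.63 (2.24 to 3.07). The difference was not even along it. Among 11 blocks of 5 kb, the ratio was highest at 174120001 to 174125000, where 8 control and 132 knockout reads gave 17.1 (6.16 to 47.7). It was 9.66 (5.09 to 18.3) in the last block, 174160001 to 174165000. In the block around the middle, 174135001 to 174140000, which held the control maximum, the ratio was 0.987 (0.634 to 1.54), and in the block before it 0.873 (0.390 to 1.95). The interval also included 1 in the block at 174145001 to 174150000, at 0.721 to 2.74. In the other 8 of the 11 blocks it lay above 1. With 5 kb trimmed from both ends, which removes the blocks at the edges, the log2 ratio of the region was 0.93 and no longer called.

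**Figure D3:**
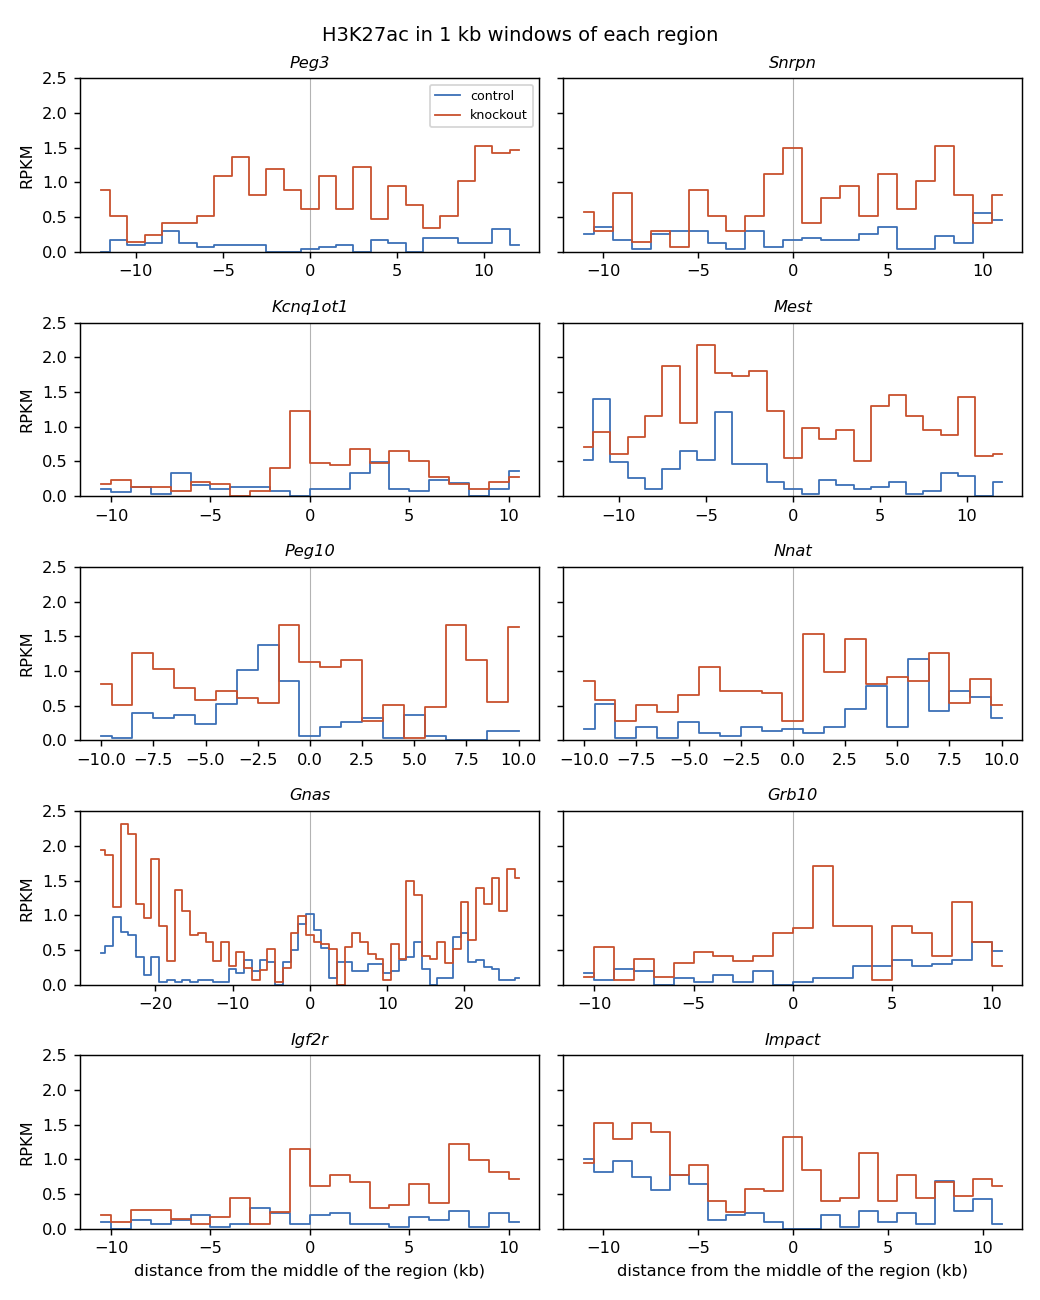
H3K27ac in RPKM in windows of 1 kb of each region, by distance in kb from the middle of the region, in the control (blue) and knockout (red) pools. Knockout lies above control in most windows, and the control peak of Peg10 at 1.37 RPKM is the clearest place where it does not.

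At the scale of 1 kb, knockout signal was higher than control signal in 224 of 259 windows of the 10 regions, against 50.4% of autosomal 1 kb windows with reads. Of 149 windows that reached the mean of the genome, 104 (69.8%) were called 2-fold higher and 1 (0.671%) lower. Over the autosomes and X, 18.5% of such windows were called higher and 20.7% lower. All tested windows of Peg3 (13 of 13) and Igf2r (8 of 8) were called higher, as were 17 of 22 in Mest, 21 of 33 in Gnas, 11 of 17 in Nnat, 10 of 15 in Snrpn and Peg10 each, 7 of 9 in Grb10, 6 of 14 in Impact and 1 of 3 in Kcnq1ot1. Windows of a region lie side by side and share its reads' sources, so they are not independent. With each bin counted at most once, 33 of 176 windows (18.75%) were called higher, against 1.25% over the autosomes and X under the same limit.

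Rich windows, set at 3 times the genome-wide mean of their own pool, numbered 4 in control and 53 in knockout, or 1.54% and 20.5% of the 259 windows. Genome-wide the shares were 4.64% and 7.63%. The 4 rich windows of control lay in Mest (2), Peg10 (1) and Nnat (1). In knockout each region had at least 1, from 1 in Kcnq1ot1 and 2 each in Snrpn, Grb10 and Igf2r to 11 in Mest and 15 in Gnas. Windows without a single read numbered 17 in control and 2 in knockout, of 259. The genome-wide shares of such windows were not computed, so these counts have nothing to be set against.

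In the mean over 9 regions, the control track had a dip at the middle of the intervals, and the knockout track did not. The middle is the midpoint of the interval as drawn. The borders of the methylated DNA were not placed on the tracks, so it may not be their centre. The profile was read in 9 regions of like length, leaving out Gnas. In the middle 1 kb, the mean over regions was 0.0800 RPKM in control, the lowest of the 21 positions from -10 to 10 kb, and 0.949 RPKM in knockout, the highest. The knockout mean was nearly as high beside it, with 0.881 RPKM at -1 kb and 0.896 RPKM at 1 kb. A single bin of 100 bp gave 24 of the 45 knockout reads in the middle of Igf2r. With that bin taken out of the middle alone, the knockout mean there would fall below those at -1 kb and 1 kb. Its place as the highest thus rests on that bin. Rich bins at the other positions were not taken out. The 9 middle windows held 22 control reads and 251 knockout reads, a ratio of 11.9 (7.70 to 19.4, counting error only). Knockout was higher in 9 of 9 regions and 2-fold higher on the scale of RPKM + 0.1 in 8 of 9, against 17.9% of autosomal 1 kb windows with reads. Nnat was the region under 2-fold, with 5 control and 8 knockout reads. In 5 of the 9 regions the middle 1 kb held at most 2 control reads, so single ratios there are imprecise. Single regions also departed from the mean profile. At Peg3, Mest and Nnat the knockout middle, at 0.612, 0.544 and 0.272 RPKM, was lower than the windows on both its sides. In the other regions it was not. Control had no dip at Igf2r, with 0.163 RPKM at the middle against 0.128 RPKM over the region. Set against the windows on both its sides, the control middle was lower only at Peg10 and Grb10. It was higher than both at Igf2r (0.0980 and 0.131 RPKM) and at Nnat, with 0.164 RPKM against 0.130 and 0.0980 RPKM.

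**Figure D4:**
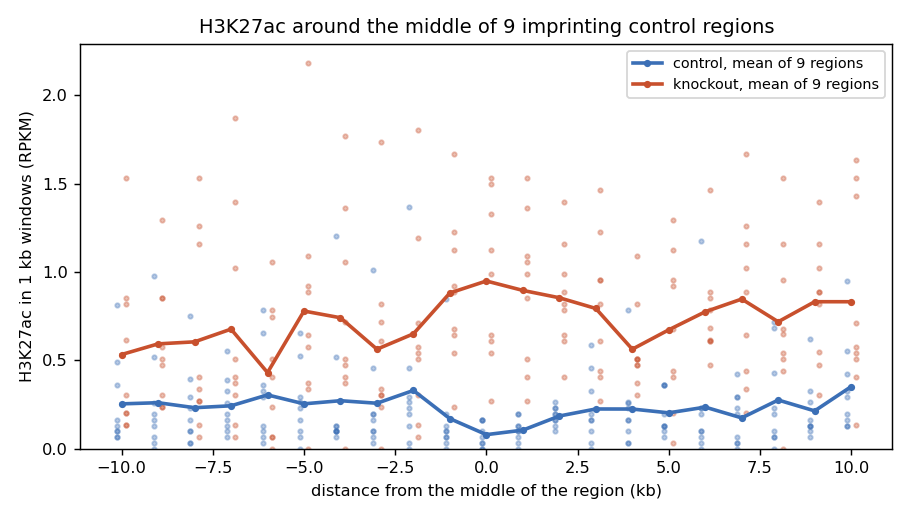
H3K27ac in RPKM in windows of 1 kb by distance in kb from the middle of 9 regions (Gnas left out), with dots for single regions and lines for their mean. The control line (blue) is at 0.0800 RPKM at the middle, where the knockout line (red) is at 0.949 RPKM.

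Over the middle 5 kb, the ratio of knockout over control was at least 2 in 9 of 9 regions, against 21.8% of autosomal 5 kb windows with reads, with a median of 5.33. Over the rest of the regions the median ratio was 2.896. At Peg3 the middle 5 kb had 6 control and 129 knockout reads, a ratio of 22.3 (10.05 to 62.4, counting error only as for the next). Grb10 followed with 10.2 (5.81 to 19.9), Kcnq1ot1 with 7.53 (4.12 to 15.2) and Impact with 7.09 (4.19 to 12.9). Nnat had 5.33, Mest 5.31, Snrpn 4.90 and Igf2r 3.66. Peg10, with its control peak in this stretch, had the lowest, 2.02 (1.55 to 2.67).

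The middle stood below its surroundings in control more often than in knockout. In control the middle 5 kb was lower than the rest of the region in 7 of 9 regions, the exceptions being Peg10 and Igf2r. In knockout it was lower in 2 of 9, Mest and Impact, which were at 0.947 and 0.908 times the rest. The genome-wide share of such windows within a single pool was not computed, so these 2 counts have nothing to be set against. On the scale of RPKM + 0.1, the middle over the rest was higher in knockout than in control in 8 of 9 regions, against 48.4% of autosomal 25 kb windows. Without a constant it was 7 of 9, as Igf2r went from 1.55 to 1.49. Kcnq1ot1 had the largest swing, from 0.459 in control to 2.44 in knockout.

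The difference was stronger inside the regions than next to them. In the 100 kb on either side, the knockout over control ratio ran from 0.659 at Kcnq1ot1 to 1.68 at Peg10, with a median of 1.31, and was above 1 in 9 of 10. The region over its flanks was higher in knockout than in control in 10 of 10 regions, against 49.7% of autosomal 20 kb windows. Its median was 0.629 in control and 1.84 in knockout. In control 7 of 10 regions lay below their flanks, from Peg3 at 0.420 to Impact at 0.942, and Nnat, Gnas and Peg10 lay above. In knockout 9 of 10 lay above and Grb10 was at 0.941. Genome-wide shares for these counts within a single pool, and for the flank ratio above 1, were not computed. Kcnq1ot1 thus had more signal inside and less outside in the knockout pool.

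**Figure D5:**
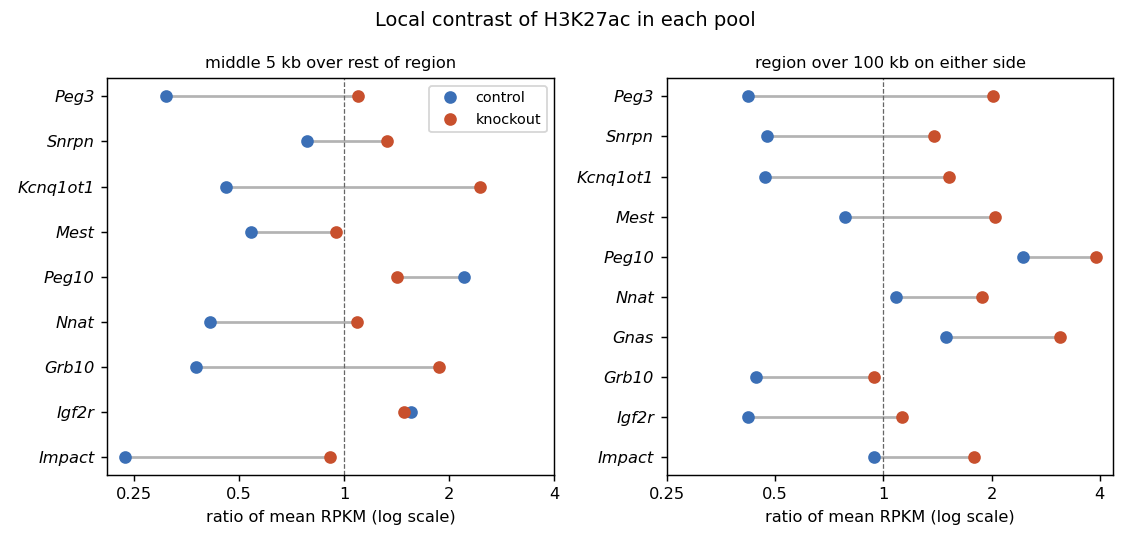
Ratio of mean RPKM on a log scale, for the middle 5 kb over the rest of the region (left, 9 regions without Gnas) and for the region over the 100 kb on either side (right, 10 regions), in control (blue) and knockout (red). On the right each red point is higher than its blue point, while Peg10 and Igf2r are reversed on the left.

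How far the higher signal reached was measured from the middle outwards, as long as a sliding mean of 5 kb stayed at least 2-fold higher on the scale of RPKM + 0.1. This rule was set after the profiles were seen. Its first step, a mean of 5 kb at the middle past 2-fold on that scale, was met by 9.35% of autosomal 5 kb windows with reads. It gave a stretch at 8 of 10 regions, from 9 kb at Kcnq1ot1 to 28 kb at Peg3 and at Mest. Peg3's stretch, chr7:6673001-6701000, passed the right border of the region and had 0.203 RPKM in control and 1.00 RPKM in knockout. Mest's, chr6:30677001-30705000, also ran past the right border. The stretches of Igf2r (19 kb), Snrpn (18 kb), Grb10 (16 kb), Nnat (14 kb) and Impact (13 kb) were shorter than their regions, though those of Igf2r and Snrpn also passed the right border. Peg10 and Gnas gave none, since at their middle the log2 ratio was 0.90 and -0.02.

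Correlation between the pools over 1 kb windows was low in most regions. Spearman's rho between control and knockout over the 1 kb windows of a region ran from -0.31 at Peg3 to 0.50 at Impact, with a median of 0.07 over 10 regions of 21 to 55 windows. These are descriptions over neighbouring windows with few control reads. Counting error weakens rho, and none was computed for other autosomal stretches, so low values cannot show that the shapes differ.

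The richest bin of 100 bp held at most 7.69% of a region's knockout reads, at Igf2r, and at most 6.93% of its control reads, at Kcnq1ot1. Single windows of 1 kb rest more on 1 bin. In the window with the highest knockout signal of each region, the richest bin held 15.6% of its knockout reads (Mest) to 46.7% (Nnat). Over the 53 rich knockout windows the median share was 28.3%, and in 2 of them it was at least 50%. At Igf2r 24 of 34 knockout reads at 12934001 to 12935000 fell in 1 bin, and at Peg3 26 of 42 at 6693001 to 6694000. Bins with reads made up 20.8% to 45.7% of a region in control and 35.0% to 73.6% in knockout. Over the autosomes this share went the other way, from 44.0% in control to 33.6% in knockout. Windows of low control signal had higher ratios across the autosomes too: in 5 classes of 20 kb windows by control signal, the pooled ratio was 2.10 in the lowest class, 1.24 and 1.11 in the next ones, where the 10 regions fall, and 0.883 in the highest. Over the windows within the range of the regions it was 1.19. The ratio of each region was above that value, and the part that low control signal has in it was not tested.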

How the data were processed

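The study measured H3K27ac in full-grown oocytes by STAR ChIP-seq, 2 samples per genotype, of 58 samples in the series. The other 54 samples were not analysed here. The deposited tracks give RPKM in 100 bp bins, with empty bins left out, pooled by the authors over both replicates, per the labels. The submitters' processing notes name mm9 and Bowtie2 2.2.2. No label says how reads were extended, whether duplicates were removed or an input subtracted, and each of these could change the values. RPKM as the unit was read from the deposited numbers, which were whole multiples of 0.326 RPKM in control and 0.341 in knockout for 100% of bins (tolerance 0.005), so reads could be counted. Of the bins with reads, 43.0% in control and 52.9% in knockout held an even number. Whether reads came in pairs or as duplicates was not tested. The exact intervals take reads as independent and are too narrow if they are not.

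Region means, 1 kb windows, the middle 5 kb and flanks of 100 kb were compared as ratios and as log2(RPKM + 0.1), called at 2-fold. Windows of 1 kb were called only where their mean over pools reached that of the genome. Ratios have exact binomial (Clopper-Pearson) or widened intervals. With pools there was no test. The members and lists were chosen with earlier results of these data known. In each region, named 1 kb windows were the highest of each pool and the largest differences. The middle windows named for Snrpn, Nnat and Igf2r and the named blocks of Gnas were chosen after their values were seen. Calls and the exact binomial intervals were tried on simulated Poisson counts, which lack the extra variance among bins seen in both pools. The widened intervals were not tried on simulated data. Alternatives were other constants, scalings, read limits, window sizes, thresholds, borders and flanks. The tools were NumPy 2.4.6 and SciPy 1.17.1 for the values, pandas 2.3.3 for tables and matplotlib 3.10.9 for plots, in Python 3.11.15.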

Additional observations from a re-analysis of the deposited data

How the results depend on the processing

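No paired analysis was possible because both replicates share 1 deposited track per genotype, which also means that none could be left out. The limit to at most 1 read per bin was chosen after seeing the data. All 90 values of the 10 regions under 9 alternatives had a log2 ratio above 0, from 0.21 to 2.78, with 55 inside the counting interval of the main value. The added constant cannot change this sign. The 3 scalings shift the log2 ratio by at most 0.089, against a lowest main value of 0.75. Signs under the constants and scalings were thus fixed in advance, and only the read limits and changed borders could have turned one. The 8 regions called higher became 10 with a constant of 0.01, 1 with 0.5 and 1 at 3-fold, which follow from the rule itself, and 0 with at most 1 read per bin. They were 7 to 9 under the 3 scalings, and Nnat was the region lost at 7. With 5 kb trimmed from both ends the number stayed 8, but Peg10 and Gnas were no longer called and Kcnq1ot1 and Impact were. The median log2 ratio of 1.18 was 1.44 with a constant of 0.01, 0.67 with 0.5 and 0.45 with at most 1 read per bin. The 104 windows called higher and 1 lower, of 149, were 163 and 8 of 259 with no filter, 31 higher of 50 with a filter at 2 times the mean, 196 and 9 of 275 in windows of 0.5 kb, and 33 higher of 176 with at most 1 read per bin. The shares called higher in these settings were 69.8%, 62.9%, 62.0%, 71.3% and 18.75%, against 18.5%, 15.6%, 23.7%, 23.2% and 1.25% over the autosomes and X. Lower windows numbered 3 at 1.5-fold, 0 at 3-fold and 0 with a constant of 0.5. Rich windows in control and knockout were 15 and 107 at 2 times the mean and 0 and 4 at 5 times. A limit of 1 read per bin compresses ratios by construction, as a filled bin cannot grow. The region over its flanks was higher in knockout in 10 of 10 regions in each setting run, and the middle over the rest in 7 to 9 of 9. Depth limits single windows of 1 kb, of which 17 in control held no read.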
